A study of Mus musculus with 6 samples.

Results

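The D cyclins, their kinases CDK4 and CDK6, inhibitors of these kinases and cyclin G2 were examined as a set of 10 genes in RNA from mouse bone marrow cells labelled as hematopoietic stem cells. The set was chosen by symbol: Ccnd1, Ccnd2, Ccnd3, Cdk4, Cdk6, Cdkn1a, Cdkn1b, Cdkn2c, Cdkn2d and Ccng2, which are 10 of the 52550 genes listed. In the knockout (KO) mice, floxed Ppp2ca was combined with Vav1-Cre, whose promoter acts throughout the blood system. Ppp2ca encodes the alpha form of the catalytic subunit in protein phosphatase 2A. The wild-type (WT) mice carried floxed Ppp2ca alleles as well, and no Cre is named for them. Each genotype had 3 libraries of poly(A) RNA. The labels give no age, sex or treatment of the mice and no surface markers for the sort. Whether each library is a different animal is not stated, and p-values therefore reflect the spread among these samples, which may be technical.

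A cell commits to division in G1. D cyclins bind and activate CDK4 and CDK6, which phosphorylate the retinoblastoma protein and its relatives and so release the E2F transcription factors that drive S-phase genes. INK4 inhibitors, here p18 (Cdkn2c) and p19 (Cdkn2d), bind CDK4 and CDK6 directly, whereas the CIP/KIP inhibitors p21 (Cdkn1a) and p27 (Cdkn1b) bind cyclin-CDK complexes and restrain CDK2. In mouse blood formation Cdk6 is associated with the exit of stem cells from quiescence, and several of these inhibitors have been studied as brakes on stem cell cycling. Cyclin G2 is an unconventional cyclin associated with cell cycle arrest, and its gene, like that of p27, is a known target of FOXO transcription factors.

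Values are normalised reads, that is, gene-level reads divided by one size factor per library. The libraries held 37951985 to 58692037 reads over genes, and a gene of the set had between 221 and 33271 reads in a library. Ppp2ca, measured over the whole gene, had 23728, 22419 and 24046 normalised reads in KO and 32909, 33451 and 33169 in WT, and the KO mean was 70.5% of the WT mean. Markers of several blood cell types differed between the genotypes. They were counted at an adjusted p below 0.05 in limma, where 13.0% of all genes tested were lower in KO and 10.3% higher. Of 14 stem cell markers 13 were lower in KO, with list sums of 32782 to 52276 normalised reads in KO and 96982 to 109292 in WT. Of 12 granulocyte-monocyte progenitor markers 10 were higher and 1 was lower, with sums of 2044751 to 2244802 in KO and 1349791 to 1596903 in WT. Erythroid markers (12 of 13 lower, sums of 12360.4 to 13682 in KO and 55299 to 61330.2 in WT) and megakaryocyte markers (10 of 11 lower, 10468 to 14964 in KO and 43816.5 to 50592 in WT) were lower as well. Among monocyte and macrophage markers 5 of 12 were lower (75239.7 to 87915 in KO and 98684 to 129275 in WT). Of 12 mature neutrophil markers 3 were higher and 2 lower (124004 to 269630.2 in KO and 89934 to 147901 in WT). Of 7 tested B lineage markers 2 were lower (5955 to 7193 in KO and 31259 to 54146 in WT), with Pax5 and Ebf1 listed at 0 in all libraries and Ms4a1 in the KO libraries. Of 9 tested T and NK markers 5 were lower and 1 higher, with higher sums in KO (41769 to 44055 in KO and 34560.1 to 35809.7 in WT). The median log2 fold change of that list was −1.89, so its sum does not follow most of its genes. Abundant genes weigh most in each of these sums. In bulk RNA, fewer cells of a type and less RNA per cell cannot be told apart, and the part of these shifts in the results below was not tested.

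Promoter sequence is shown for a pair of the genes: Cdkn1b, the inhibitor whose messenger fell in KO, and Ccnd3, the D cyclin whose KO libraries disagreed with each other. Each stretch is the 250 bases before an annotated start, taken from RefSeq on GRCm38.p6 and printed for the plus strand. The positions are chr6:134920151-134920400 for Cdkn1b and chr17:47504801-47505050 for the more upstream of the starts listed for Ccnd3. Capitals mark matches to 3 of the 4 motifs searched, each searched on both strands. The GC box, a site of Sp-family factors, was searched as GGGCGG and reads as its complement where it lies on the minus strand. The core of the binding site of FOXO factors was searched as TGTTTAC. The third motif was the CCAAT box, searched by the letters of its name.
Cdkn1b: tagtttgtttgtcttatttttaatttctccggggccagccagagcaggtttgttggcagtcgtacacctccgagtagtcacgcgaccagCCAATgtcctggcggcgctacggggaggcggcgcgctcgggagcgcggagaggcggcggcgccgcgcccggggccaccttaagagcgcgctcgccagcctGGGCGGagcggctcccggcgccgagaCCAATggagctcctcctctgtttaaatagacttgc
Ccnd3: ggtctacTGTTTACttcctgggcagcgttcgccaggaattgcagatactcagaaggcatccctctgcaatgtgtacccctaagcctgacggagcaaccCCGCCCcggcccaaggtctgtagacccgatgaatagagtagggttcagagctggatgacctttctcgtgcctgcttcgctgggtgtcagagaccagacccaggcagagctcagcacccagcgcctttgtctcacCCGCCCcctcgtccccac
The Cdkn1b window held 1 GC box and 2 CCAAT boxes, and the Ccnd3 window held 2 GC boxes and 1 FOXO core. The other window listed for Ccnd3, at its more downstream start, held 1 GC box, 1 CCAAT box and 0 FOXO cores. Which of these starts the measured cells used was not tested. A search for the E2F words TTTCCCGC, TTTCGCGC, TTTGCCGC and TTTGGCGC on both strands found 0 matches in the 11 windows of these genes, beside 1.86% of all windows. Among 32851 promoter windows of the same length, 32.7% held a GC box, 33.8% a CCAAT box and 3.17% a FOXO core. Of the 10 genes, 8 had a window in the table. A match describes these letters and not a bound site.

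Of the 10 genes, 3 fell in KO and 0 rose: Ccnd1, Cdkn1b and Ccng2 passed the test (limma, Benjamini-Hochberg adjusted p below 0.05 over 20136 genes). Over all genes tested, 23.3% passed, 13.0% lower and 10.3% higher in KO. The count tests on recovered reads called 0 higher and 3 (edgeR) or 4 (DESeq2) lower. Over all genes, edgeR called 2075 of 16708 higher and 2496 lower, and DESeq2 called 2430 of 25995 higher and 2964 lower. At an unadjusted p below 0.05, 5 of the 10 were lower and 0 higher. The share of all genes at that unadjusted threshold was not computed. Such counts, here and below, therefore have no background beside them and are not read as a shift of a list. All 10 passed the filter on low values. A negative log2 fold change was found in 9 of the 10, beside 10368 of the 20136 genes tested. The median was −0.44 beside −0.02 over all genes tested. The KO and WT values did not overlap in 4 of the 10, beside 40.9% of all genes in either direction, a share near the background. All 4 were lower in KO, while over all genes 21.7% were lower without overlap and 19.1% higher.

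**Figure D1:**
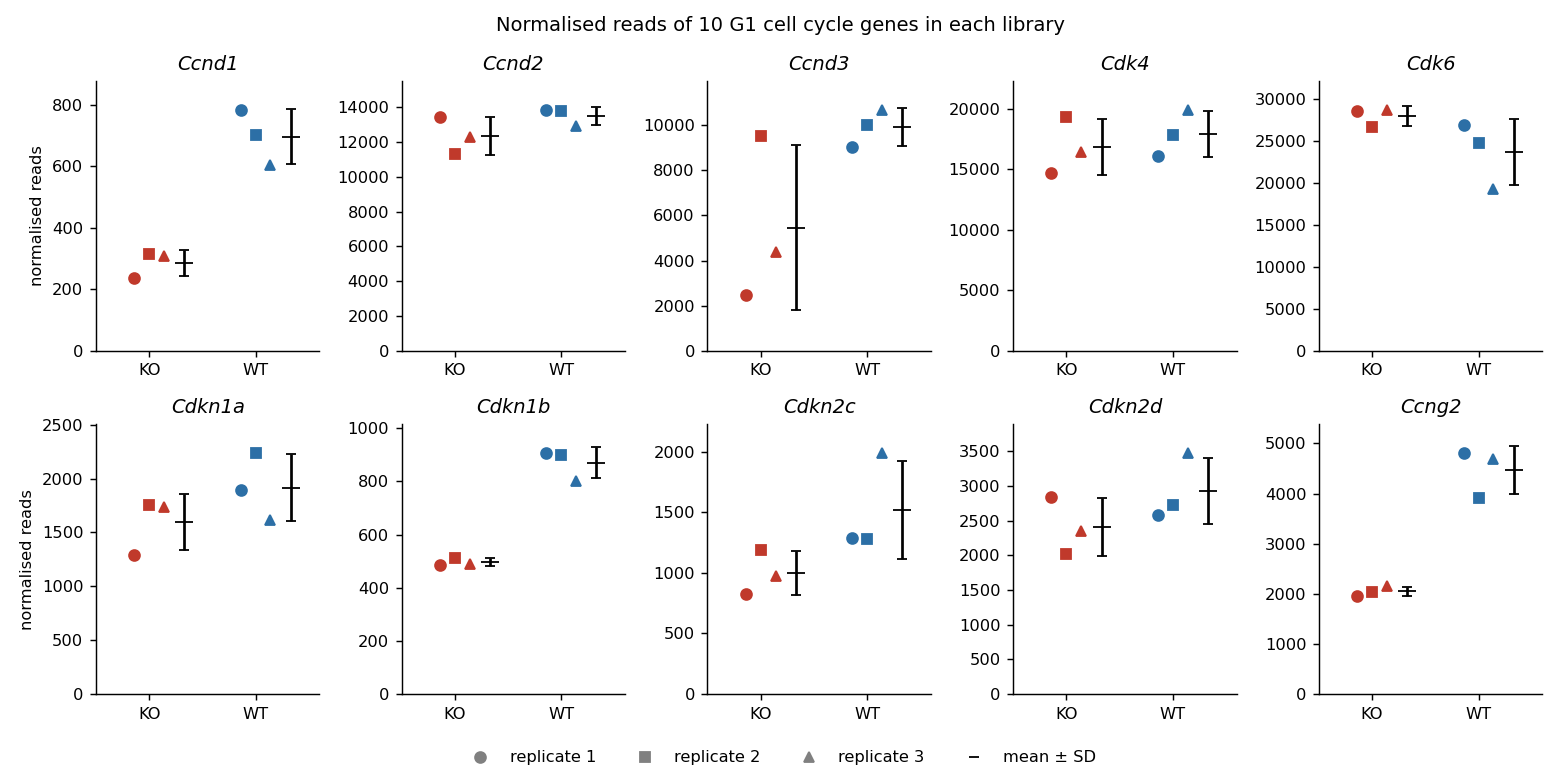
Normalised reads (vertical axis, linear from 0) of each of the 10 genes in the 3 KO and 3 WT libraries, with marker shapes for the replicate number and black bars for the mean ± SD (n = 3 each). The KO points of Ccnd1, Cdkn1b, Cdkn2c and Ccng2 lie below all WT points, and those of Ccnd3 spread between 2479 and 9540.0.

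Among the D cyclins, Ccnd1 fell. Ccnd1, which encodes cyclin D1 (chromosome 7, 144929931 to 144939925, minus strand, GRCm38), had 237, 314 and 307 normalised reads in KO, against 784, 703 and 605 in WT. Every KO library was below every WT library. The means were 286 ± 42.8 in KO and 697 ± 89.7 in WT (SD, n = 3 each), with a log2 fold change of −1.29 ± 0.19 (SE) and an adjusted p of 0.00353 in limma. That is 2.44-fold lower in KO on the log2(value + 1) scale. The annotated exons of Ccnd1 share 1100 bases with those of Oraov1 on the opposite strand, and strand use in counting is not stated in the labels, so reads of the pair may be mixed. Oraov1 had 494, 535 and 455 normalised reads in KO and 655, 946 and 851 in WT.

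Ccnd2, the gene of cyclin D2 (chromosome 6, 127125162 to 127152193, minus strand), had 13439, 11288 and 12276 normalised reads in KO and 13837, 13777 and 12901 in WT. The groups overlapped, since KO replicate 1 lay within the WT range. The log2 fold change was −0.13, with a 95% interval of −0.34 to 0.07 (adjusted p = 0.328), the narrowest interval of the 10. An increase or decrease of 2-fold lies outside it, while differences within it were not resolved.

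Ccnd3, the gene of cyclin D3 (chromosome 17, 47505051 to 47599691, plus strand), had 2479, 9540.0 and 4361 normalised reads in KO, against 9018, 10021 and 10679 in WT. KO replicates 1 and 3 lay far below all WT libraries, whereas KO replicate 2 lay within the WT range. The means were 5459.9 ± 3657 in KO and 9906 ± 836 in WT (SD, n = 3 each), so the SD reached 67.0% of the mean in KO and 8.44% in WT. The difference did not pass the test (log2 fold change −1.08 ± 0.41 SE, 95% interval −2.04 to −0.11, adjusted p = 0.103). Without KO replicate 2 the log2 fold change was −1.59 and passed (adjusted p = 0.00535), so that library decides the call. The interval misses 0 because it is not adjusted over genes. Ccnd3 shares 361 exon bases with Bysl on the opposite strand, which had 7168, 7901 and 7476 normalised reads in KO and 4591, 5749 and 5844 in WT. A processed pseudogene, Ccnd3-ps, is annotated on chromosome 4, and the labels do not say how reads matching several genes were counted.

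Cyclin G2 fell with the smallest p of the set. Ccng2 (chromosome 5, 93267257 to 93276231, plus strand) had 1951, 2039 and 2145 normalised reads in KO, against 4806, 3918 and 4690.2 in WT. The KO libraries were closely spaced, and all lay below the WT libraries. The means were 2045 ± 97.4 in KO and 4471 ± 483 in WT (SD, n = 3 each), with a log2 fold change of −1.12 ± 0.11 (SE) and an adjusted p of 0.000887, so that KO kept 45.7% of the WT level.

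Neither kinase gene passed the test. Cdk4 (chromosome 10, 127063534 to 127067920, plus strand) had 14714, 19314 and 16446 normalised reads in KO and 16081, 17822 and 19919.9 in WT. The ranges largely coincided, and the log2 fold change of −0.10 had a 95% interval of −0.38 to 0.19 (adjusted p = 0.63). Its exons share 641 bases with Tspan31 on the opposite strand. Cdk6 (chromosome 5, 3341485 to 3531008, plus strand) had 28628, 26646 and 28707 normalised reads in KO and 26954, 24773 and 19302 in WT. It was the only gene of the set with a positive log2 fold change, 0.25 with a 95% interval of −0.04 to 0.55 (adjusted p = 0.189). The exons of Cdk6 share 368 bases with the antisense gene Gm17590, which had 79.3, 101 and 98.4 normalised reads in KO and 267, 202 and 129 in WT. Ccnd2 and Cdkn1a also overlap annotated genes on the opposite strand. The low end of the WT range of Cdk6 was set by WT replicate 3, which was the lowest library.

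WT replicate 3 also stood apart in other genes measured here. Fos, an immediate early gene among the regulators upstream of D cyclins, had 73087, 98645 and 90364 normalised reads in KO and 169409, 153205 and 32571 in WT. Its value in WT replicate 3 was the lowest of the 6 libraries. Klf2 and Klf6, listed below among FOXO targets, were also lowest there. In WT they had 6839, 6019 and 866 (Klf2) and 57028, 48882 and 11883 (Klf6) normalised reads. The part of this library's difference in the levels of Cdk6, Cdkn2c and Cdkn2d, and in the counts of the upstream and FOXO lists below, was not tested. Without it, the log2 fold changes were 0.11 for Cdk6, −0.38 for Cdkn2c and −0.16 for Cdkn2d, with adjusted p-values of 0.407, 0.200 and 0.559.

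**Figure D2:**
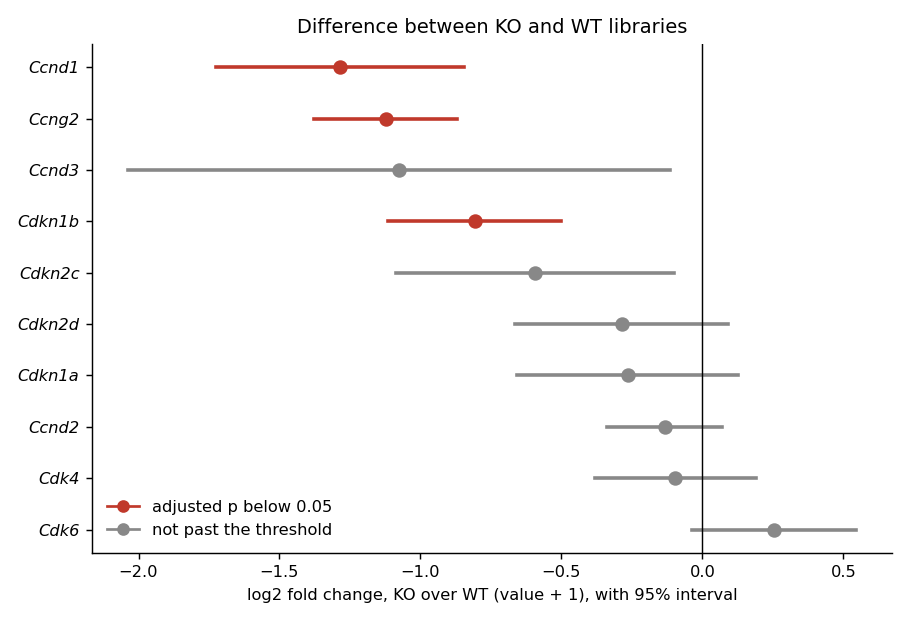
Log2 fold change of KO over WT (horizontal axis, on log2(value + 1)) for the 10 genes, with 95% intervals from limma that are not adjusted over genes. Red marks the 3 genes with an adjusted p below 0.05, Ccnd1, Ccng2 and Cdkn1b, at −1.29, −1.12 and −0.81, and Ccnd3 has the widest interval.

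Among the CIP/KIP inhibitors, p27 fell and p21 did not pass the test. Cdkn1b, which encodes p27 (chromosome 6, 134920401 to 134925513, plus strand), had 487, 513 and 488 normalised reads in KO, against 907, 900.2 and 803 in WT. The KO values lay within a narrow band well below the WT values. The means were 496 ± 14.7 in KO and 870.0 ± 57.9 in WT (SD, n = 3 each), with a log2 fold change of −0.81 ± 0.13 (SE) and an adjusted p of 0.00517. KO thus kept 57.0% of the WT level of this messenger. p27 is also controlled through its degradation, which these data do not measure.

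Cdkn1a, the p53 target that encodes p21 (chromosome 17, 29090979 to 29100722, plus strand), had 1294, 1754 and 1740.3 normalised reads in KO and 1890.2, 2236 and 1618 in WT. The groups overlapped, and the log2 fold change of −0.26 had a 95% interval of −0.66 to 0.13 (adjusted p = 0.313). Of the remaining CIP/KIP gene, Cdkn1c, which encodes p57 and is an imprinted brake on stem cell cycling, the values were 124, 80.6 and 73.3 in KO and 222, 127 and 267 in WT. The groups did not overlap, but the difference did not pass (log2 fold change −1.11, adjusted p = 0.066). It passed in edgeR (adjusted p = 0.0473), in DESeq2 (adjusted p = 0.0198) and without WT replicate 2 (adjusted p = 0.0395).

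The INK4 genes had lower means in KO and did not pass. Cdkn2c, the gene of p18 (chromosome 4, 109660876 to 109667189, minus strand), had 824, 1189 and 975 normalised reads in KO, against 1288, 1279 and 1988 in WT. The groups did not overlap, but KO replicate 2 came close to WT replicates 1 and 2, and WT replicate 3 was far above the others. The means were 996 ± 183 in KO and 1518 ± 407 in WT (SD, n = 3 each), with a log2 fold change of −0.59 ± 0.21 (SE) and an adjusted p of 0.0842, which was 0.0262 in DESeq2. Cdkn2d, the gene of p19 (chromosome 9, 21288410 to 21291407, minus strand), had 2842, 2016 and 2352 normalised reads in KO and 2577, 2729 and 3472 in WT. These groups overlapped (log2 fold change −0.29, 95% interval −0.66 to 0.09, adjusted p = 0.257). Cdkn2a and Cdkn2b, the other INK4 genes, were listed at 0 in all 6 libraries. All 37 mitochondrially encoded genes were listed at 0 too, so a listed 0 is not read as absence. Cdkn3, a phosphatase of CDKs and not an INK4 or CIP/KIP protein, averaged 1531 ± 215 normalised reads in KO and 1102 ± 145 in WT (SD, n = 3 each). It did not pass the test (log2 fold change 0.47, adjusted p = 0.0616), although it passed with upper quartile scaling (0.0465), in DESeq2 (0.0276) and without KO replicate 2 (0.0319).

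Levels of different genes were compared per kb of annotated exon, as normalised reads per kb. Cdk4 was highest in both genotypes, at 5178 ± 715 per kb in KO and 5522 ± 592 in WT (SD, n = 3 each). In KO it was followed by Cdk6 at 2001 ± 83.5, Cdkn2d at 1527 ± 264 and Ccnd2 at 1311 ± 114 per kb. The WT order at these places was Cdkn2d at 1859 ± 304, Cdk6 at 1692.5 ± 282 and Ccnd2 at 1435 ± 55.7. The library ranges of Cdkn2d and Ccnd2 overlapped in KO, as did those of Cdkn2d and Cdk6, and of Cdk6 and Ccnd2, in WT. Next came Ccnd3 at 622 ± 417 per kb in KO and 1129 ± 95.3 in WT. Its place in KO holds for the mean only. In KO replicate 1 Ccnd3 was at 282 per kb, below Cdkn1a (364), Ccng2 (357) and Cdkn2c (307). Cdkn1a, Ccng2 and Cdkn2c then stood at 449 ± 73.7, 375 ± 17.8 and 371 ± 68.2 per kb in KO, with overlapping neighbours. In WT they stood at 539 ± 87.2, 819 ± 88.5 and 565 ± 151, and Cdkn2c overlapped both others. Cdkn1b (109 ± 3.22 in KO and 191 ± 12.7 in WT) and Ccnd1 (60.8 ± 9.09 in KO and 148 ± 19.0 in WT) were the lowest, with no overlap between them. The order depends on the length used: per kb of the longest transcript, Ccnd3 held place 2 in WT instead of place 5, and Cdk6 place 5 instead of place 3.

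Within the summed level of the 3 D cyclins per kb, Ccnd2 made up 81.1%, 51.0% and 69.9% in KO and 55.2%, 53.1% and 50.5% in WT. Ccnd3 made up 16.0%, 46.2% and 26.6% in KO and 38.6%, 41.4% and 44.8% in WT. Per kb of exon, Ccnd2 held the larger part in all 6 libraries. Its share was above the WT range in KO replicates 1 and 3 and near the lowest WT value in KO replicate 2. Ccnd1 made up 2.86%, 2.84% and 3.49% in KO and 6.25%, 5.42% and 4.73% in WT, with no overlap. Per kb of the longest transcript, the mean share of Ccnd2 was 59.2% in KO and 43.7% in WT and that of Ccnd3 was 38.5% in KO and 52.5% in WT. In KO replicate 2 the shares by that length were 41.1% for Ccnd2 and 57.0% for Ccnd3. The larger D cyclin in WT and in KO replicate 2 thus depends on the length used. Summed over the D cyclins the level was 1761, 2354 and 1867 per kb in KO and 2665, 2756 and 2716 in WT, and every KO library was below every WT library. The summed level of Cdk4 and Cdk6 was 6575, 7849 and 7114 per kb in KO and 6876, 7256 and 7511 in WT, with overlap. The 4 inhibitors together had 2584, 2329 and 2454 per kb in KO and 2848, 3037 and 3577 in WT, without overlap. Cdkn2d supplied the largest part of that sum, on average 61.9% ± 7.51 in KO and 58.7% ± 2.53 in WT (SD, n = 3 each), and Cdkn1b supplied 4.45% ± 0.36 in KO and 6.15% ± 1.08 in WT.

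**Figure D3:**
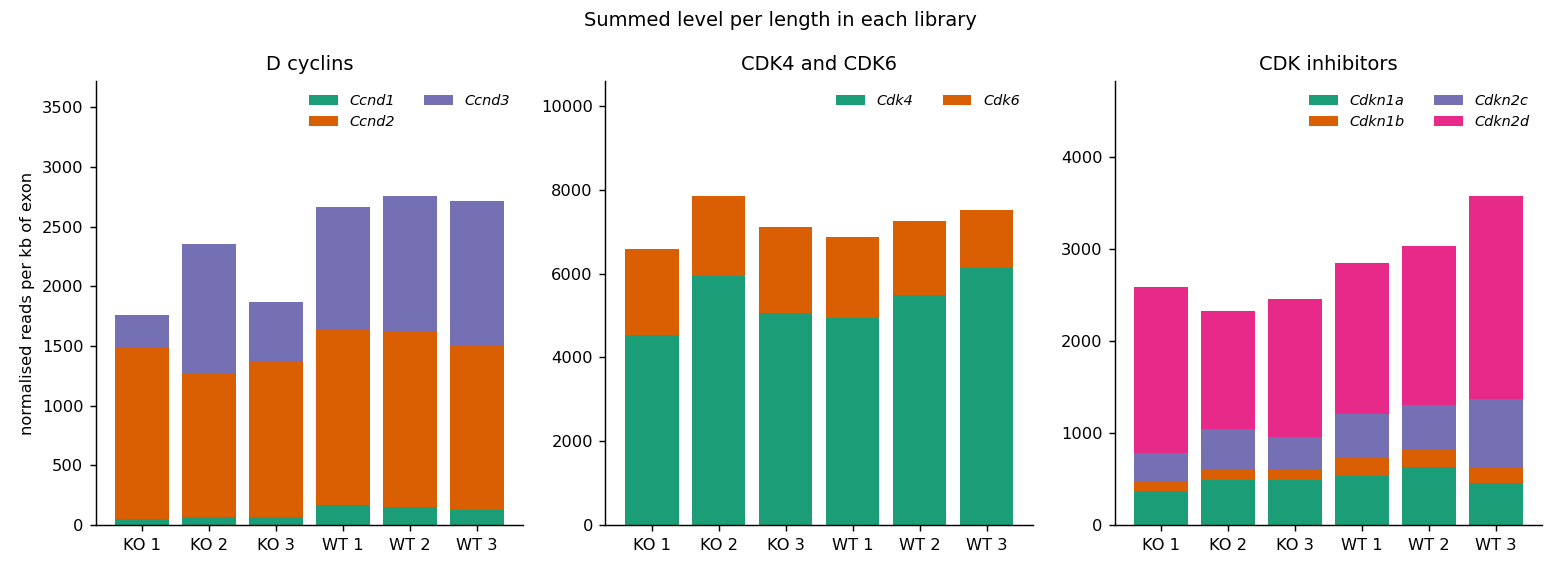
Normalised reads per kb of exon (vertical axis, linear from 0) in each KO and WT library, stacked by gene for the 3 D cyclins, for Cdk4 with Cdk6 and for the 4 inhibitors. Ccnd3 is the part of the D cyclin bar that differs most between KO libraries, from 282 to 1087 per kb, and the Cdk4 and Cdk6 bars overlap between the genotypes.

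Ratios of a pair of genes within a library do not depend on the scaling between libraries. Of 6 ratios, 2 did not overlap between the groups. The log2 ratio of Ccnd2 over Ccnd1 was 5.83, 5.17 and 5.32 in KO and 4.14, 4.29 and 4.42 in WT, a mean difference of 1.15. That of Cdkn1b over Cdkn1a was −1.41, −1.77 and −1.83 in KO and −1.06, −1.31 and −1.01 in WT, a mean difference of −0.54. For both, the exact two-sided permutation p was 0.1, the smallest that 3 against 3 libraries allow, and 0.3 adjusted over the 6 ratios. The log2 ratio of Cdk6 over Cdk4 averaged 0.74 ± 0.25 in KO and 0.39 ± 0.40 in WT (SD, n = 3 each, exact permutation p = 0.3, adjusted 0.6), with overlap. The mean difference of 0.35 became 0.13 when WT replicate 3 was left out and 0.53 when WT replicate 1 was. The ratio of Ccnd2 over Ccnd3 averaged 1.39 ± 1.10 in KO and 0.45 ± 0.17 in WT (exact permutation p = 0.4, adjusted 0.6), and its mean difference of 0.94 was 0.42 without KO replicate 1 and 1.52 without KO replicate 2. The ratio of Ccnd1 over Ccnd3 (mean difference −0.21, exact permutation p = 0.9, adjusted 0.9) turned to 0.23 without KO replicate 2 and was between −0.54 and −0.06 without any other single library. That of Cdkn2c over Cdkn2d differed by −0.31 (exact permutation p = 0.5, adjusted 0.6), and by −0.05 without KO replicate 1 and −0.56 without KO replicate 2.

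The genes around the G1 machinery moved in both directions. Of 141 tested genes in 10 lists, 22 rose and 18 fell, beside 10.3% higher and 13.0% lower over all genes, with a median log2 fold change of 0.06. These shares of all genes are also the background for the limma counts in single lists below. The counts over all genes given above for edgeR and DESeq2 are the background for theirs. With upper quartile scaling 30 rose and 16 fell, and without KO replicate 3 the counts were 13 and 11.

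Among 18 genes of the pocket proteins, E2F factors and the DREAM complex, 4 rose and 2 fell. The E2F factors E2f2 (log2 fold change 0.64) and E2f4 (0.55), the E2F partner Tfdp1 (0.42) and Mybl2, a transcription factor of the S and G2 phases (0.99), rose, although Tfdp1 did not pass without the intensity trend (adjusted p = 0.071). E2f5, another E2F factor, fell to 286 ± 46.9 normalised reads in KO, against 620.3 ± 43.7 in WT (SD, n = 3 each, log2 fold change −1.12, adjusted p = 0.00528). The pocket protein gene Rbl2, which encodes p130, fell by 0.34 on the log2 scale (adjusted p = 0.0199), a call lost in 4 of 15 alternatives, among them the fits without KO replicate 3, WT replicate 1 or WT replicate 2. Rb1 averaged 2266 ± 309 in KO and 2509 ± 245 in WT and did not pass (adjusted p = 0.471).

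Downstream of E2F, 3 of 21 G1/S genes rose and 0 fell in limma, beside 10.3% higher and 13.0% lower over all genes. At an unadjusted p below 0.05, 8 were higher and 0 lower. No share of all genes was computed there, so this count is not read as a rise of the list. The count tests edgeR and DESeq2 called 4 and 5 higher and 0 lower. Rrm2, the regulated subunit of ribonucleotide reductase, rose most, with 39649, 32461 and 36768 normalised reads in KO, against 14309, 17177 and 15823 in WT (log2 fold change 1.20, adjusted p = 0.00072). Cdc45, a part of the replicative helicase, rose by 0.57, a call lost without the intensity trend (adjusted p = 0.0542). The licensing factor gene Cdt1 rose by 0.37, a call lost in 7 of 15 alternatives (without any library but KO replicate 1 among them), and Rrm1 did not pass (0.26, adjusted p = 0.0539). Rrm1 passed in 5 of 15 alternatives: upper quartile scaling (adjusted p = 0.0293), the filter at 5 (0.0434), edgeR (0.0468), DESeq2 (0.0487) and the fit without WT replicate 2 (0.0439). The other 17 genes of the list, the 6 Mcm helicase genes among them, did not pass.

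Of 8 tested genes around cyclin E, cyclin A and CDK2, 3 rose and 1 fell. Ccne1, the gene of cyclin E1, rose to 2751 ± 443 normalised reads in KO, against 1637 ± 173 in WT (SD, n = 3 each, log2 fold change 0.74, adjusted p = 0.00993). Ccna2, the cyclin A2 gene (0.40), and the phosphatase gene Cdc25c (0.45) rose, and Cdc25b fell by 0.46 on the log2 scale, but these 3 calls were lost in 6, 6 and 5 of 15 alternatives, among them the fits without KO replicate 3 or WT replicate 2. Cdk2 averaged 4703 ± 1031 in KO and 6160.5 ± 1158 in WT and did not pass (adjusted p = 0.18). Among 26 other cyclins and CDKs, 6 rose and 3 fell. The mitotic genes Ccnb1 (0.60) and Cdk1 (0.47) and the atypical cyclin gene Ccno (2.63) rose, and Cdk17 fell by 0.89 on the log2 scale. The call of Cdk1 did not hold without the intensity trend (adjusted p = 0.0605). The proliferation marker Mki67 was higher by 0.38 (adjusted p = 0.0428), a call lost in 8 of 15 alternatives (without any library but KO replicate 2 among them), and Top2a did not pass (log2 fold change −0.06, adjusted p = 0.681).

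In the CDK-activating kinase, 0 of 3 genes passed limma in either direction, with 2 higher and 0 lower at an unadjusted p below 0.05 and 0 called by edgeR or DESeq2. Ccnh, Cdk7 and Mnat1 had log2 fold changes of 0.24, 0.27 and −0.26. Ccnh passed as higher with upper quartile scaling (adjusted p = 0.0256) and with a pseudocount of 0.1 (0.0499), and Mnat1 passed as lower without WT replicate 1 (0.0458). Of 17 genes that act in the degradation of G1 cyclins and inhibitors, 1 rose and 0 fell in limma, as in edgeR and DESeq2, with 4 higher and 0 lower at an unadjusted p below 0.05. The one that rose was Usp2, a deubiquitinase that stabilises cyclin D1 in human cells (0.89, adjusted p = 0.00988). Skp2, the ubiquitin ligase subunit that marks p27 for degradation, averaged 2774 ± 303 normalised reads in KO and 2145 ± 320.3 in WT and did not pass (0.38, adjusted p = 0.0983). Its cofactor Cks1b (0.20) and the cyclin D ligase receptor Ambra1 (0.38) did not pass either.

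Upstream of the D cyclins, 1 of 15 genes rose and 3 fell. Mycn fell to 259, 421 and 265 normalised reads in KO, against 2670.4, 2154 and 3038 in WT. Myc fell by 0.47 and Stat5b by 0.48 on the log2 scale, and Akt1 rose by 0.52. The calls of Myc, Stat5b and Akt1 were lost in 5, 6 and 2 of 15 alternatives, among them the fit without KO replicate 3, and those of Myc and Stat5b also without WT replicate 2 or 3.

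Of 16 tested FOXO factors and targets, 3 rose and 5 fell. The list median log2 fold change was 0.03, beside −0.02 over all genes tested. The factors Foxo1 and Foxo3 are themselves among the 5, and every gene that rose was a target. The targets thus moved in both directions. Foxo3 fell to 439, 448 and 519 normalised reads in KO, against 842, 805 and 779 in WT (log2 fold change −0.79, adjusted p = 0.00716). Foxo1 fell to 272, 336 and 277 in KO, against 659.7, 533 and 576 in WT (adjusted p = 0.00686). Among genes known as FOXO targets, Fbxo32, a muscle atrophy ubiquitin ligase (−2.25), and Txnip, an inhibitor of thioredoxin (−1.60), fell, while Gadd45b, a stress sensor, rose (1.46). Of 15 tested genes around p53 and Cdkn1a, 1 rose and 4 fell. Sesn1 (−1.64), Plk2 (−2.50) and Trp53inp1 (−1.14) fell, Gadd45a rose (1.03), and the call of Trp53inp1 did not hold without the intensity trend (adjusted p = 0.0505). Trp53 averaged 14473 ± 2288 in KO and 18207 ± 1216 in WT and did not pass (log2 fold change −0.34, adjusted p = 0.0879), although it passed without KO replicate 2 (adjusted p = 0.0412).

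**Figure D4:**
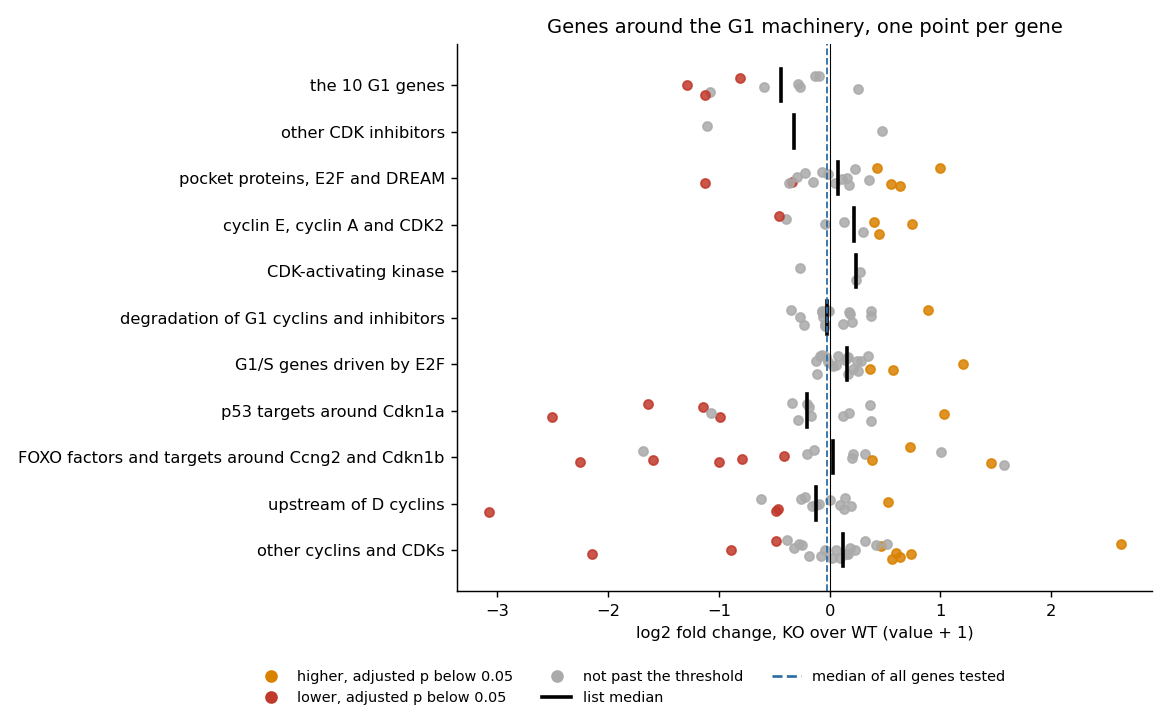
Log2 fold change of KO over WT (horizontal axis, on log2(value + 1)), with 1 point per tested gene in each list, the list median as a black bar and the median of all genes tested as a dashed line. The 10 G1 genes have the lowest list median, −0.44, and no orange point, while 6 of the 10 other lists hold genes called in both directions.

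The genes of these lists with the profile nearest to each of the 10, by the Euclidean distance of log2(value + 1) centred on the WT mean over the 6 libraries, were searched among 150 genes. Nearest to Cdkn1b was Foxo3, at a distance of 0.23, and nearest to Ccng2 was Foxo1, at 0.36. E2f5 was nearest both to Ccnd1 (0.47) and to Ccnd3 (1.15), Slbp to Ccnd2 (0.08), Skp1a to Cdk4 (0.18) and Cks1b to Cdk6 (0.28). Ccnt1 was nearest to Cdkn1a (0.34), Stat5b to Cdkn2c (0.53) and Fbxo4 to Cdkn2d (0.33). The distance mostly reflects the difference between genotypes that a pair of genes shares in size. The FOXO list was assembled around Ccng2 and Cdkn1b, and a link within any pair was not tested.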

How the data were processed

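Per the labels' protocols, RNA was isolated using Trizol, and a VAHTS mRNA-seq v2 kit was used for library construction. The submitters' processing notes name HISAT2, StringTie, mm8 and mm10 without versions or roles. The deposited files give a signal per gene and library that their headers call expression. In each library, 100% of values came out as whole reads (tolerance 0.01 read) after division by a common step of 0.863 to 1.17. Whole reads were recovered in this way, and the steps equal the reciprocals of median-of-ratios size factors computed from the recovered reads. All 49035 gene identifiers found with their version in GENCODE M21 had the same coordinates there, so positions are GRCm38. Cdkn1a has another version in M21, whose exons gave its length.

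KO was tested against WT (3 libraries each) with limma 3.58.1 in R 4.3.3 on log2(value + 1), with moderation that follows the mean level (an intensity trend). The 20136 genes reaching 1 in 3 or more libraries entered. P-values were two-sided and Benjamini-Hochberg adjusted over all these genes, with a threshold of 0.05. Count tests on recovered reads (edgeR 4.0.16, DESeq2 1.42.0), other scalings, filters and pseudocounts, the replicate block and leaving out each library were alternatives. The procedure was tested on simulated data in which far fewer genes changed than passed here, so shifts of this extent were not simulated. All pairs of libraries differed beyond sampling noise (chi-square per degree of freedom of at least 38.0). The genes and lists were chosen with earlier results of these data known. Named were the 10 genes, Ppp2ca, up to 4 genes with the smallest p of each list, Myc, Mycn, Rb1, Rbl2, Trp53, Foxo3, Cdk2, Skp2, Mki67, Top2a, the other CDK inhibitors and the nearest profiles. Fos, Klf2, Klf6, Tfdp1 and genes overlapping one of the 10 were named outside that rule, after their values were seen.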

Additional observations from a re-analysis of the deposited data

How the results depend on the processing

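Across 15 alternatives the calls of Ccnd1, Cdkn1b and Ccng2 held, with adjusted p-values of up to 0.0203, 0.0288 and 0.0109, and 0 of the 10 genes passed as higher. The other 7 genes kept their direction. Ccnd3 passed only without KO replicate 2 and Cdkn2c only in DESeq2, so 3 to 4 genes were lower when single libraries were left out. Without the intensity trend 11 pathway genes rose and 10 fell, and 1071 of all genes were higher. Leaving out single libraries gave 13 to 20 pathway genes higher and 11 to 18 lower, and 978 to 1808 of all genes higher and 1617 to 2548 lower, beside 2069 and 2622 with all libraries, and fewer samples entered each of these fits. Leaving out single libraries moved the differences in the log2 ratios to between −0.54 and 0.23 for Ccnd1 over Ccnd3, 0.42 and 1.52 for Ccnd2 over Ccnd3, 0.13 and 0.53 for Cdk6 over Cdk4, −0.56 and −0.05 for Cdkn2c over Cdkn2d, 0.96 and 1.29 for Ccnd2 over Ccnd1 and −0.68 and −0.46 for Cdkn1b over Cdkn1a, and the cause was not tested. Labels share replicate numbers, but same-numbered libraries did not deviate together (correlations −0.02, −0.01 and −0.02), and no KO library correlated best with its own number. With the replicate number as a block 3 of the 10 genes were lower and 0 higher, 18 pathway genes were higher and 17 lower, and 1705 of all genes were higher and 2157 lower. The lowest count in the set was 221 reads, for Ccnd1 in KO replicate 1.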
